A study of Mus musculus with 12 samples.

Results

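Melanoma cells sorted from B16-F10-OVA tumors were compared with melanoma cells sorted from B16-F10 tumors, using 6 of the 12 messenger RNA libraries of the series, 3 per tumor line. These libraries were chosen by their labels, and every gene of the raw count table was considered. The 6 remaining libraries, made from T cells selected out of the same kinds of tumor, served to class the genes. Genes with almost no counts in the T cell libraries are described apart from genes that stromal or immune RNA could bring in, since the T cell libraries hold such RNA.

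B16-F10 is a pigmented mouse melanoma line. The control cells carried a lentiviral calcium sensor, GCaMP6s, under the EF1A promoter. The OVA cells carried the same sensor and, in addition, chicken ovalbumin from a second EF1A lentiviral vector with neomycin resistance. Both lines grew in NOD-SCID mice, a strain without T and B lymphocytes that keeps myeloid cells, and both sets of mice received OT-1 CD8+ T cells that had been activated with beads against CD3 and CD28. The T cell receptor of OT-1 cells recognizes a peptide of ovalbumin, so both groups share the T cell transfer and differ in whether the tumor line carries the antigen. Tumors were taken 2 days after transfer, and melanoma cells were sorted by fluorescence for GCaMP6s. The labels give neither the age of the mice nor whether a line was 1 clone, and they leave unsaid whether replicate libraries stand for separate mice. The p-values thus reflect only how far replicate libraries spread, possibly for technical reasons, and the tumor line and everything handled with it cannot be told apart. The transgenes have no row in the table that was used, so the labels were not checked against them.

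Melanocytes and melanoma cells descend from the neural crest, the embryonic source of glia and peripheral neurons as well. The transcription factors Mitf, Sox10 and Pax3 hold the pigment program together, in which tyrosinase (Tyr), Tyrp1 and Dct make melanin inside an organelle, the melanosome, built on the fibrous protein encoded by Pmel. Mitf binds a short promoter element, the M-box, in several of these genes. Melanoma cells can lower the pigment program, and many melanomas also express glial and neuronal genes of their neural crest origin.

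The promoters of 3 pigment genes are shown because these genes span the changes described next, from the smallest fall of the 3 (Tyrp1) through Dct to the largest (Slc24a5). The capitals mark the M-box letters TCATGTG, or the same letters on the other strand. Each stretch runs from 250 bases before the transcription start to 50 bases after it, from RefSeq on GRCm38.p6. Their positions are chr4:80833963-80834262 (plus strand) for Tyrp1, chr14:118052197-118052496 (minus strand) for Dct and chr2:125067877-125068176 (plus strand) for Slc24a5.
Tyrp1: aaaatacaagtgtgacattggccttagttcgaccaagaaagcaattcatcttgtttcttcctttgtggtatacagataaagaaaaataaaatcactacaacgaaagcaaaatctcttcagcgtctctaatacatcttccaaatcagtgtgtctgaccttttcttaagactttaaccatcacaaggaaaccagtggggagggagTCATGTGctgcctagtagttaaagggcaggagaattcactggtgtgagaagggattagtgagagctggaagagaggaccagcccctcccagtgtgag
Dct: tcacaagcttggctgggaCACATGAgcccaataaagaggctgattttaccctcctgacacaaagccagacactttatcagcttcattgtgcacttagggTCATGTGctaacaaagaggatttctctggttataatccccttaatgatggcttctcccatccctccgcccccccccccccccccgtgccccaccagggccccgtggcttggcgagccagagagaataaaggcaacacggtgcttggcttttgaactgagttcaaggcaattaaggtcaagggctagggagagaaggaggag
Slc24a5: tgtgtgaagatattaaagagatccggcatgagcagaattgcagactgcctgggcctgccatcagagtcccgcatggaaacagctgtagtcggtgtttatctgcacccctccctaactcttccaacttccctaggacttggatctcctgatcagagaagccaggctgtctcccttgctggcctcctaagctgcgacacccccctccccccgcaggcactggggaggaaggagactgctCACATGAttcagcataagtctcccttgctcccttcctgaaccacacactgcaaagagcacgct
Of the 12 melanoma cell markers, 7 had a promoter in the table, and 5 of these held the letters on either strand, including Tyr and Trpm1. Among all 27025 mouse genes with a promoter of the same length in the table, 4.31% held them in at least 1 promoter. The presence of the letters is a description of the sequence and was not tested for binding.

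The 12 markers of melanoma cells check the labelled cell type. All were present in both tumor groups, at a summed 23496 ± 48.5 CPM (counts scaled to a common library total of 1e6) in the B16-F10 group and 10000.2 ± 8.79 CPM in the OVA group (SD, n = 3). The T cell groups held 246 ± 3.8 and 109.6 ± 3.17 CPM. A median of 1.09% of the tumor level of a marker was found in T cells from B16-F10 tumors, and of 1.15% in T cells from OVA tumors.

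Library totals ran from 18948947 to 23213586 counts in the B16-F10 tumor group and from 18754546 to 33263730 in the OVA tumor group. Mitochondrial genes took 1.71% to 1.8% of the counts in the former and 6.42% to 6.57% in the latter, and the part of this difference in the results was not tested. Markers of immune, stromal and epithelial cells mostly stood higher in the OVA tumor libraries. The Schwann cell list summed to less, at 736 to 747 CPM in B16-F10 and 371 to 376 CPM in OVA libraries. Most of this sum was the melanoma marker Sox10, a list member with means of 516 and 245 CPM. Of the 9 list members tested, 4 were higher and 5 lower. The 12 endothelial markers summed to 23.6 to 25.4 CPM in the B16-F10 libraries and to 4816 to 4886 CPM in the OVA libraries, and Emcn and Cldn5 among them had 0 counts in B16-F10. Fibroblast markers summed to 237 to 245 CPM against 2569 to 2586 CPM, and macrophage and monocyte markers to 532 to 539.9 CPM against 3348 to 3374 CPM. The OVA tumor libraries held 39.4% of the endothelial level of the higher T cell group, 37.8% of the fibroblast level and 6.04% of the T cell marker level. They held 349% of the macrophage and 228% of the neutrophil level, so the T cell libraries cover stromal genes better than myeloid ones. In bulk libraries, fewer melanoma cells and less RNA per melanoma cell cannot be told apart.

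**Figure D1:**
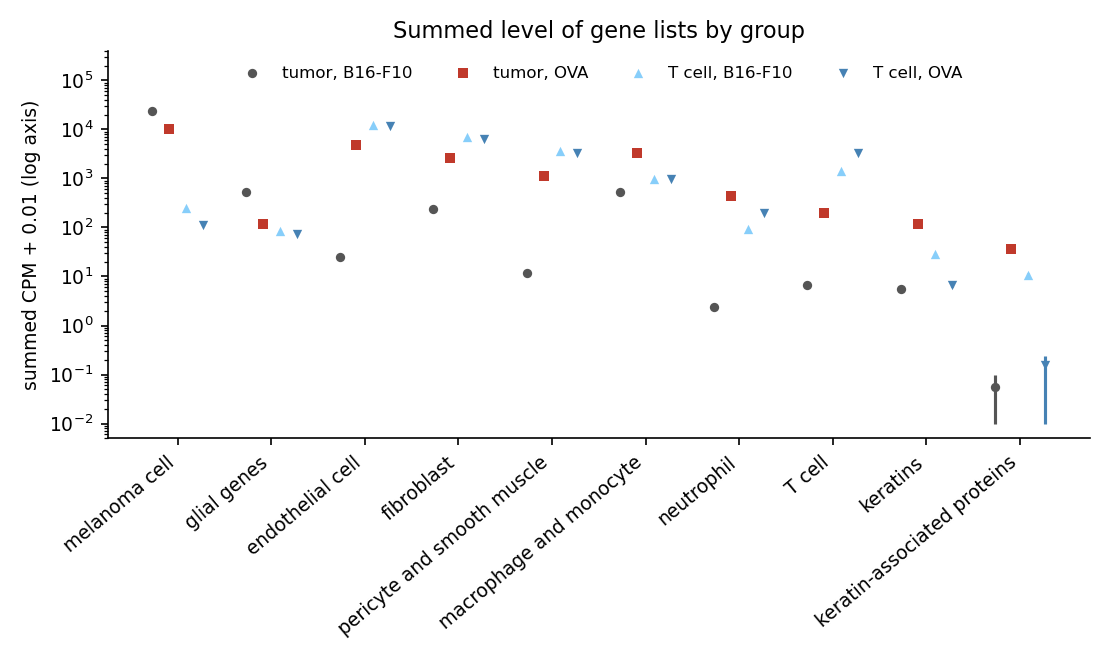
Summed CPM of gene lists (log axis, 0.01 added) in each group, as the mean of 3 libraries with a line from the lowest to the highest library. The 12 melanoma cell markers fall from 23496 to 10000.2 CPM between the tumor groups, while the endothelial, fibroblast, pericyte, macrophage, neutrophil, T cell and keratin lists stand higher in the OVA tumor libraries.

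Genes were put in 3 classes by their T cell level. A gene was near-empty where its mean was under 1 CPM in both T cell groups, trace where it reached 1 CPM but at most 3% of the higher tumor group, and shared otherwise. The near-empty class uses only the T cell columns. The trace class uses the tumor level as well, which favors genes that are high in at least 1 tumor group, so its counts are a description. Near the first limit, Brs3 (0.998 CPM) and Tmod1 (0.996 CPM) fell just inside and Gca (1.01 CPM) and Fam241b (1.02 CPM) just outside. Near the second, Gstp2 (2.82%) and Fbxo44 (2.79%) fell inside and Plagl1 (3.03%) and Bicd1 (3.06%) outside.

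Of 17418 genes tested with edgeR's quasi-likelihood test, 7322 were higher in OVA libraries and 6516 lower, which is 42.0% and 37.4% of the genes tested. The median log2 fold change was 0.04. Together these are 79.4% of the genes tested. Against a 2-fold change (edgeR's glmTreat), 3867 were higher and 797 lower, or 22.2% and 4.58%, 26.8% in all. The shared class followed the shares at the main threshold, with 6687 higher and 5488 lower of 14595 and a median of 0.08. All 66 trace genes were lower, 40 of them beyond 2-fold, with a median of -1.18. Of 2757 near-empty genes, 635 were higher and 962 lower. Their median was -0.24. The near-empty class split by level. Of its 202 genes that averaged 5 CPM or more over the 6 tumor libraries, 11 were higher and 177 lower, the median being -1.13 and quartiles of -1.64 and -0.64.

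The classes also differed in their share of the counts. Trace genes took 4.15% of the counts in B16-F10 tumor libraries and 1.71% in OVA tumor libraries (mean of 3 libraries each), against 0.0512% and 0.0275% in the T cell groups. Near-empty genes went from 1.01% to 0.578%. Since all trace genes fell, changes are also given relative to the median log2 fold change of the 12 melanoma markers, -1.18, called marker scaling below. Under marker scaling the median of all genes moved to 1.22, that of the near-empty class turned to 0.94, and the near-empty genes with at least 5 CPM split into 88 higher and 79 lower around a median of 0.06.

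**Figure D2:**
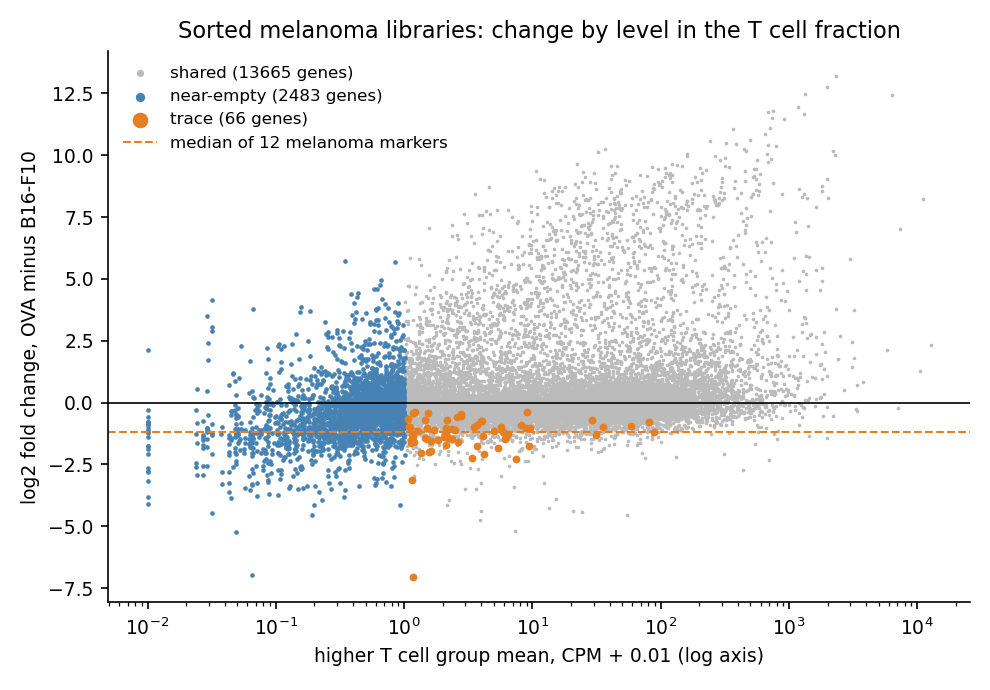
Log2 fold change (OVA minus B16-F10, TMM scaling) of each tested gene against its level in the higher T cell group (CPM with 0.01 added, log axis), colored by class. Genes with 3 or fewer counts in a tumor group are left out. The 66 trace genes all lie below 0, around the dashed median of the melanoma markers at -1.18, and most of the highest rises plotted are shared genes.

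Pigment enzyme and melanosome genes fell, by unequal amounts. Pmel, the melanosome fiber protein, had 5358, 5354 and 5372 CPM in the B16-F10 tumor libraries and 1916, 1941 and 1918 CPM in the OVA ones, beside 31.4 and 20.3 CPM in T cells from B16-F10 and OVA tumors (group means, in this order throughout). The tumor groups lay far apart, with almost no spread inside either, and the log2 fold change was -1.31 (SE 0.0118, adjusted p = 4.77e-29). Dct, a melanin enzyme, had 6712, 6684 and 6771 CPM against 2635, 2636 and 2634 CPM, a change of -1.18 (SE 0.0114, adjusted p = 1.72e-28). Tyrp1, the enzyme beside it in the pathway, had 6659.6, 6724 and 6703 CPM against 3428, 3403 and 3436 CPM and changed by -0.80 (SE 0.0115, adjusted p = 3.52e-25). Tyrp1 fell less than the marker median, which Dct and Mlana, the middle pair of the 12 markers, set. Tyr, the first enzyme of the pathway, had 920.4, 920.5 and 894 CPM against 405, 411 and 391 CPM, and Mlana, a melanosomal membrane protein, 373, 379 and 383 CPM against 149, 149.9 and 145 CPM. Their log2 fold changes were -1.01 and -1.18, and no OVA library reached a B16-F10 library for either.

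The melanosome ion and solute carriers spread more widely than the enzymes. Slc24a5, a melanosomal cation exchanger, had 551, 555 and 537 CPM in B16-F10 and 115, 114 and 114 CPM in OVA libraries, with a log2 fold change of -2.09 (SE 0.019, adjusted p = 5.07e-29). It fell the most of the 12 markers. Gpr143, a melanosomal receptor, had 46, 47.7 and 47.7 CPM against 12, 12.4 and 12.1 CPM and changed by -1.79. Slc45a2, a melanosomal transporter, and the channel gene Trpm1 changed by -1.26 and -1.37. Oca2, a melanosomal anion channel, went the other way. It had 10.4, 10.8 and 10.6 CPM in B16-F10 and 15.4, 15.5 and 14 CPM in OVA libraries, beside 0.336 and 0.0279 CPM in T cells, so it was near-empty there. The lowest OVA library stood above the highest B16-F10 library, and the log2 fold change was 0.66 (SE 0.0704, adjusted p = 1.03e-08).

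Of 14 pigment enzyme and melanosome genes tested, 2 were higher and 12 lower, beside 42.0% and 37.4% of all genes tested. Their median log2 fold change was -1.18 against 0.04 over all genes. The list shares genes with the 12 markers, among them Pmel, Dct and Slc24a5, so this median is not a separate result. Marker scaling centers the markers on 0, so some of them turn positive by construction. Under marker scaling Tyrp1 (0.38), Tyr (0.17) and Gpnmb (0.22), a melanosomal glycoprotein, turned positive, while Slc24a5 (-0.91), Gpr143 (-0.61) and Ptgds (-1.05) stayed below 0. Ptgds, prostaglandin D synthase, had 672, 677 and 676 CPM against 129, 124 and 129 CPM and changed by -2.23 (SE 0.0179, adjusted p = 4.44e-30). Of the genes that move the melanosome along the cytoskeleton, the linker Mlph and the motor Myo5a changed by -1.52 and -1.64. The motor was in the shared class, at 69.1 and 69 CPM in T cells. Rab38, which sorts cargo to the melanosome, changed by -0.58 and turned to 0.61 under marker scaling. In that trafficking list of 21 genes tested, 3 were higher and 16 lower, or 14.3% and 76.2%. The list median of -0.47 turned to 0.71 under marker scaling.

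**Figure D3:**
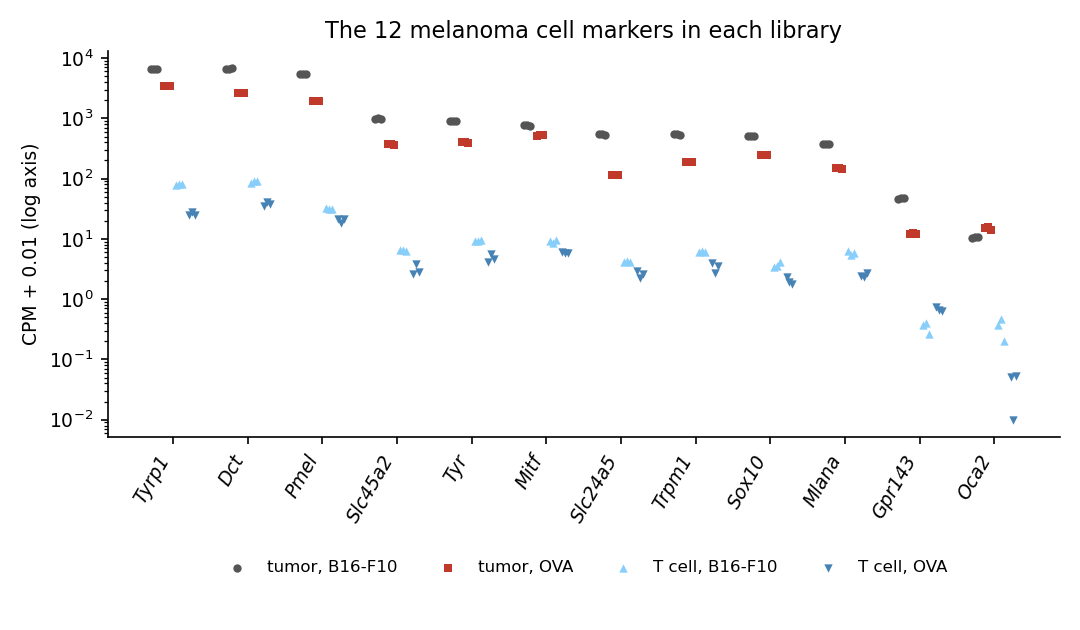
CPM (0.01 added, log axis) of the 12 melanoma cell markers in each of the 12 libraries, 3 points per group. The B16-F10 tumor points lie above the OVA tumor points for every marker except Oca2, and the T cell points of the abundant markers lie near 1% of the tumor level.

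The 5 lineage transcription factors in the trace class fell by unequal amounts, and Mitf fell least of them. Mitf had 767, 773 and 758 CPM in B16-F10 and 517, 524 and 532 CPM in OVA libraries. The groups did not overlap, and the log2 fold change was -0.38 (SE 0.0154, adjusted p = 2.27e-16). Sox10, which acts upstream of Mitf, had 510.2, 518 and 519 CPM against 246, 243 and 245 CPM, and Pax3, another upstream factor, 360.2, 360.0 and 358 CPM against 135, 136 and 131 CPM. These were changes of -0.91 and -1.25. Tfap2a, a neural crest factor, and Sox6 changed by -1.34 and -1.03. Relative to the marker median, Mitf (0.80), Sox10 (0.28) and Sox6 (0.16) were above 0, and Pax3 (-0.07) and Tfap2a (-0.16) below it. Of the 18 lineage factors tested, 8 were lower and 8 higher, shares near those over all genes (37.4% lower and 42.0% higher), and 7 of the 8 that were higher belonged to the shared class. The remaining one, the homeobox factor Msx2, was near-empty in T cells and had 0 counts in B16-F10 against 1.56, 1.76 and 1.25 CPM in OVA libraries. Cited1, a coactivator chosen after its values were seen, was near-empty in T cells and had 72.6, 74.1 and 76.1 CPM against 7.34, 6.51 and 7.32 CPM, a change of -3.21 (SE 0.0526, adjusted p = 4.14e-24).

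Of the listed receptors that were tested, only Met was clear of the T cell fraction. Met, the receptor of hepatocyte growth factor, had 1770.3, 1786 and 1753 CPM in B16-F10 and 799, 786 and 799 CPM in OVA libraries, a change of -0.99 (SE 0.0138, adjusted p = 1.89e-25) that became 0.20 under marker scaling. Fgfr1 and Ednrb, receptors for fibroblast growth factors and endothelins, were higher in OVA libraries. Ednrb had 0.188, 0 and 0.106 CPM against 311, 315 and 309.9 CPM, beside 751 and 615 CPM in T cells. Fgfr1 had 1.27, 1.46 and 1.27 CPM against 57.7, 60.4 and 60.5 CPM, beside 119.5 and 81.2 CPM in T cells. The receptor kinase gene Axl had 27.1, 28 and 27.1 CPM against 70.4, 67 and 69.9 CPM, beside 93.7 and 84.4 CPM in T cells. For all 3 the OVA tumor level lay between the B16-F10 tumor level and the T cell levels, and the part of stromal RNA in these rises was not tested. Of 20 receptors tested, 19 were shared with the T cell libraries.

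Glial and neural crest genes were among the largest falls clear of the T cell fraction. S100b, a calcium-binding protein of glia and melanocytes, had 116, 119 and 111 CPM in B16-F10 and 11.6, 11.7 and 11.5 CPM in OVA libraries, a change of -3.15 (SE 0.0443, adjusted p = 2.17e-25). It led the named trace genes, and the OVA libraries all lay far under the B16-F10 ones, where the naming rule required no overlap. Gfap, the intermediate filament of astrocytes and some Schwann cells, had 18.3, 18.5 and 18.6 CPM against 1.38, 0.64 and 0.523 CPM and changed by -4.15 (SE 0.152, adjusted p = 2.8e-17). Gpr37, a receptor of glial cells, had 136, 141 and 144 CPM against 17.3, 17.2 and 17.2 CPM, a change of -2.86. Gjc3, a glial gap junction protein, had 40.6, 39.3 and 39.9 CPM against 3.94, 3.63 and 4.91 CPM, a change of -3.09. Both lay below 0 under marker scaling as well, at -1.68 and -1.91. Cdh19, a cadherin of Schwann cell precursors, and Fabp7, a fatty acid binding protein of glial precursors, changed by -1.56 and -1.44. Genes of the myelin sheath in the shared class differed in direction. Mbp changed by -0.86, turning to 0.33 under marker scaling, while Prx rose, with 1.5, 2.02 and 2.64 CPM in B16-F10 and 5.59, 6.13 and 5.31 CPM in OVA libraries. In a list of glial genes drawn up after values were seen, 9 of 14 tested were lower and 5 higher. Among all genes tested 37.4% were lower and 42.0% higher. Of its 6 near-empty members, 5 were lower. So were 34.9% of all near-empty genes tested and 88.7% of those that reached 5 CPM in a tumor group. The list of 12 Schwann cell markers holds S100b, Cdh19 and the melanoma marker Sox10. It had 5 lower and 4 higher of 9 tested, or 55.6% and 44.4%. Its summed level was lower in OVA libraries, as given above, and the part of Schwann cells in these falls was not tested.

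Alpha-class glutathione transferases join glutathione to toxic aldehydes and other electrophiles. The 5 that passed the filter on low counts (Gsta3 did not) are described here, and each was lower in OVA libraries. Gsta4, which handles aldehydes of lipid peroxidation, had 168, 175 and 164 CPM in B16-F10 libraries, 8.36, 9.17 and 8.09 CPM in OVA libraries, beside 0.714 and 0.922 CPM in T cells. Its log2 fold change was -4.15 (SE 0.0442, adjusted p = 1.09e-27), or -2.97 under marker scaling. Gsta1 had 129, 125 and 125 CPM against 20.4, 21.6 and 20.6 CPM, and Gsta2 41.1, 38.8 and 41.8 CPM against 5.17, 5.33 and 5.15 CPM. Gsta1 and Gsta2 changed by -2.44 and -2.79, and Gsta5 and Gsta13 by -2.84 and -2.63. Gsta1, Gsta2, Gsta5 and Gsta13 are close copies of each other, reads may be split among them in counting, and their separate values are uncertain. This family was also chosen after values were seen. Of its 24 members tested in all subclasses, 7 were higher and 14 lower, beside 42.0% and 37.4% of all genes tested. Their median of -0.74 turned to 0.44 under marker scaling. Of the family's 8 near-empty members tested, 7 were lower and 1 was not called, and the higher ones were all in the shared class. Among all near-empty genes tested 34.9% were lower, and among those that reached 5 CPM in a tumor group 88.7%.

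Neuronal genes changed in both directions. Syt4, a synaptotagmin of secretory vesicles, was abundant, with 1286, 1297 and 1281 CPM in B16-F10 and 235, 241 and 233 CPM in OVA libraries, beside 7.18 and 7.4 CPM in T cells. Its change of -2.28 (SE 0.0158, adjusted p = 3.02e-31) was larger than that of Pmel, and it stayed at -1.10 under marker scaling. Rims2, a scaffold of the synaptic release site, had 40.5, 44.9 and 40.2 CPM against 12.9, 12.3 and 13.5 CPM, and Dclk1, a microtubule-binding kinase, 83.7, 86.4 and 83.3 CPM against 22.7, 22.8 and 23.6 CPM. They changed by -1.53 and -1.71, and the postsynaptic scaffold Shank2 by -1.43. Under marker scaling Rims2, Dclk1 and Shank2 stood at -0.35, -0.53 and -0.25. In the synaptic and cytoskeletal list of 32 genes tested, 16 were higher and 12 lower, or 50% and 37.5% against 42.0% and 37.4% of all genes. Of its near-empty members 4 of 6 were lower and 2 higher, Shank1 (2.33) and Sv2b (1.71), and of its shared members 14 of 24 were higher. Among all genes of these classes, 34.9% of near-empty genes were lower and 45.8% of shared genes higher. Gpr158, a neuronal receptor, had 17.2, 19.4 and 20.3 CPM against 6.91, 6.72 and 6.32 CPM, beside 0.0776 and 0.0335 CPM in T cells. Its change was -1.34 (SE 0.0801, adjusted p = 3.67e-13), or -0.16 under marker scaling.

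Glutamate receptor genes were lower where they were near-empty in the T cell libraries and passed the filter on low counts. Grik2, a kainate receptor subunit, had 29.1, 29.6 and 30.6 CPM in B16-F10 and 5.5, 6.35 and 6.2 CPM in OVA libraries, a change of -2.15 (SE 0.0683, adjusted p = 1.67e-18). The NMDA receptor subunit Grin1 and the metabotropic receptor Grm5 stood under 2 CPM in every library and changed by -2.06 and -2.75. The AMPA receptor subunit Gria4 and the subunits Grik4 and Grin3b changed by -1.19, -1.03 and -0.92. Under marker scaling Grik4 and Grin3b stood at 0.15 and 0.26, no longer called by edgeR (adjusted p = 0.318 and 0.156). Gria4 stood at -0.01 there, its fall likewise almost gone. Of the 26 genes of this family 13 passed the filter, with 5 higher and 8 lower, beside 42.0% and 37.4% of all genes tested. The 6 near-empty ones among them were lower. So were 34.9% of all near-empty genes tested and 88.7% of those that reached 5 CPM in a tumor group. Grin1, Grm5 and Grin3b did not reach 5 CPM. Of the 7 shared members 5 were higher, beside 45.8% of all shared genes. The 6 voltage-gated sodium channels tested split into 3 higher, all in the shared class, and 3 lower. Of the lower ones, Scn8a changed by -1.65 and Scn1a by -0.98, the latter standing at 0.20 and not called under marker scaling (edgeR, adjusted p = 0.0778). Kcnj13, an inward rectifier potassium channel known from retinal pigment epithelium, had 35, 33.9 and 33.5 CPM against 2.56, 2.35 and 2.37 CPM and changed by -3.63 (SE 0.077, adjusted p = 6.2e-22).

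**Figure D4:**
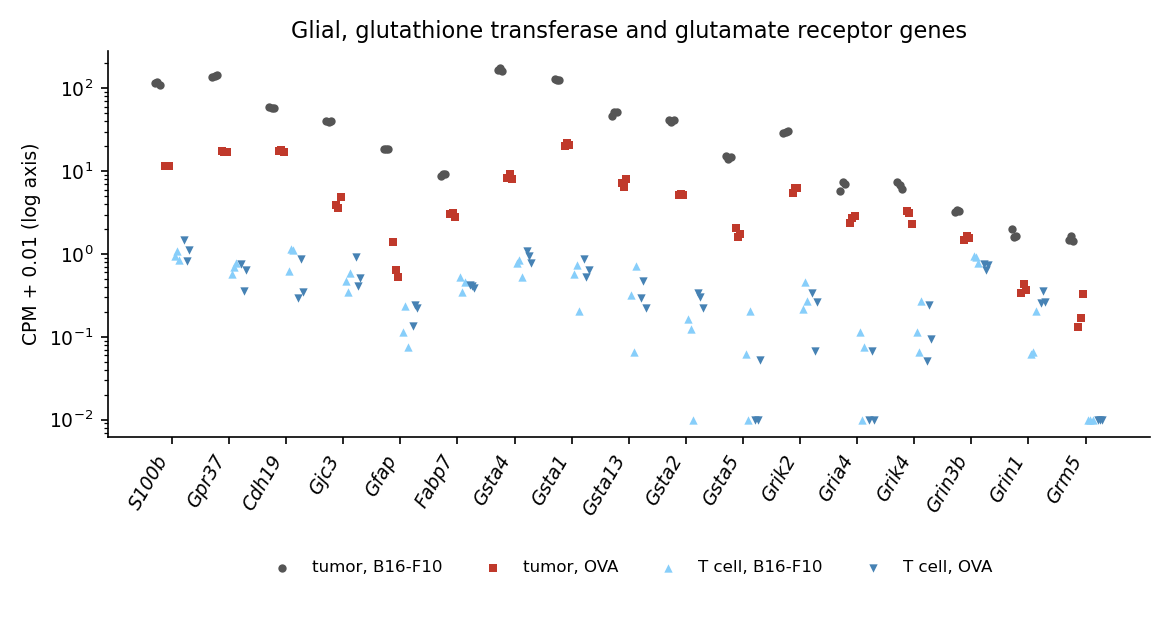
CPM (0.01 added, log axis) of glial, alpha-class glutathione transferase and glutamate receptor genes in each of the 12 libraries, 3 points per group. The 17 genes were chosen after values were seen, and for each of them every B16-F10 tumor point lies above every OVA tumor point. Both T cell groups lie near or under 1 CPM. Not plotted are the members that were higher in OVA libraries, 5 of 14 glial and 5 of 13 glutamate receptor genes tested.

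Other near-empty genes with the lowest fold changes had varied roles. Mrap, an accessory protein of melanocortin receptors, had 348 counts over the B16-F10 tumor libraries and 2 over the OVA ones, a CPM ratio of 211 in favor of B16-F10 (95% Clopper-Pearson interval 57.9 to 1748, counting error only). Clvs1, a lipid-binding protein of the endosome, had 16.7, 14.6 and 14.6 CPM against 0.12, 0.107 and 0.0805 CPM, a change of -6.97 (SE 0.194, adjusted p = 1.26e-19). Mcoln3, a lysosomal cation channel, had 14.2, 15.5 and 15.9 CPM against 0.872, 0.906 and 0.885 CPM, a change of -3.93. Each B16-F10 library stood many times above each OVA library for these 3 genes, and the naming rule required groups without overlap. The guidance molecule Sema3e and Hapln1, a linker of hyaluronan and proteoglycans, changed by -3.52 and -3.44. Slc25a34, a mitochondrial carrier, and the phosphatase inhibitor Ppp1r14c changed by -3.37 and -3.35. Hoxd13, a homeobox factor of distal body regions, had 5.73, 5.99 and 6.39 CPM against 0.571, 0.427 and 0.523 CPM, a change of -3.36 (SE 0.185, adjusted p = 7.88e-14). The noncoding Snhg7os changed by -3.24. It is named for its place opposite Snhg7, the counting was not stated to use strand, and its value is uncertain.

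The collagen genes were chosen after values were seen. Of 5 near-empty collagens tested, 4 were lower and 1 higher. Among all 2757 near-empty genes tested, 635 were higher and 962 lower, the latter being 34.9%. Among those that reached 5 CPM in a tumor group 88.7% were lower, and of the 5 collagens only Col2a1 reached it. The 4 collagens that were lower are collagens of cartilage. Col9a1 had 2.44, 3.45 and 3.38 CPM in B16-F10 and 0.271, 0.32 and 0.0805 CPM in OVA libraries, and Col10a1 2.77, 3.36 and 3.8 CPM against 0.21, 0.0533 and 0.483 CPM. Col2a1, the main cartilage collagen, had 4.61, 6.38 and 4.7 CPM against 1.71, 1.65 and 1.37 CPM. Their log2 fold changes were -3.61, -3.47 and -1.56, with -2.66 for Col9a2, all on low counts. The higher one, Col8a2, had 0.188, 0.0431 and 0.106 CPM against 0.691, 0.906 and 0.684 CPM, a change of 2.86. Of 30 shared collagens, 24 were higher and 6 lower, beside 45.8% higher and 37.6% lower among all shared genes. The summed level of the collagen family was 389.9 CPM in B16-F10 and 11729 CPM in OVA tumor libraries, and 31143 and 29344 CPM in T cells from these tumors.

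Some genes of metabolism clear of the T cell fraction were lower, while Cth, described below, was higher. Ldhb, the lactate dehydrogenase subunit that favors pyruvate formation, had 552, 535 and 555 CPM in B16-F10 and 146, 146 and 145 CPM in OVA libraries, a change of -1.74 (SE 0.0181, adjusted p = 7.17e-28). It was the single glycolysis gene outside the shared class. Gpd1, a cytosolic glycerol phosphate dehydrogenase, had 96, 101 and 98.6 CPM against 22, 20.7 and 22.3 CPM, a change of -2.01. Ppargc1a, a coactivator of mitochondrial biogenesis that melanoma cells can drive through Mitf, had 649.9, 655 and 627 CPM against 334, 335 and 349 CPM. It changed by -0.76 (SE 0.0192, adjusted p = 2.15e-20), less than the marker median, and stood at 0.43 under marker scaling. Of the 17 genes of the PGC-1 list tested, 9 were lower and 4 higher, beside 37.4% and 42.0% of all genes tested. The list median of -0.18 turned to 1.00 under marker scaling. Of 13 carbonic anhydrases tested, 6 were higher, all in the shared class, and 5 lower, shares near those of all genes. Among the lower ones, Car6 and Car14 changed by -1.96 and -1.48. Car9, a known target of hypoxia signaling, had 115, 110.5 and 113 CPM against 61.4, 62.5 and 61.8 CPM and changed by -0.70, turning to 0.48 under marker scaling. Chsy3, which builds chondroitin chains, and the tetraspanin Tspan10 changed by -1.83 and -2.03.

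Some trace genes fell little. Pde11a, a cyclic nucleotide phosphodiesterase, had 43.9, 43.7 and 45.5 CPM in B16-F10 and 30.4, 31 and 30.1 CPM in OVA libraries, a change of -0.37 (SE 0.0412, adjusted p = 2.24e-08). Dmrta2, a transcription factor, Fkbp6, a chaperone of germ cells, and Camsap3, a microtubule-binding protein, changed by -0.40, -0.41 and -0.48. Glrb, a glycine receptor subunit, changed by -0.52, and the synaptic adhesion genes Clstn3 and Nrcam by -0.68 and -0.92. Under marker scaling all of these stood above 0, from 0.26 for Nrcam to 0.81 for Pde11a. The X-linked genes Xlr3a and Xlr3c, near-empty in T cells and close copies of each other, changed by -0.75 and -0.81 and likewise turned to 0.43 and 0.38.

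A small group of near-empty genes present in both tumor groups rose in the OVA libraries. Cpz, a secreted carboxypeptidase, had 2.12, 2.24 and 2.16 CPM in B16-F10 and 5.89, 5.76 and 5.19 CPM in OVA libraries, a change of 1.54 (SE 0.134, adjusted p = 3.7e-10). Cnnm1, a membrane protein of the magnesium transport family, had 3.53, 3.23 and 2.69 CPM against 8.03, 7.3 and 7.52 CPM, a change of 1.44. Igf2bp1, an RNA-binding protein of fetal tissue, had 3.85, 4.01 and 4.43 CPM against 7.7, 7.52 and 7.6 CPM, a change of 1.07 (SE 0.104, adjusted p = 2.64e-09). Its T cell levels were 0.119 and 0.192 CPM. Cth, which makes cysteine from cystathionine, had 11.4, 11.7 and 10.6 CPM against 15.7, 15.6 and 16.1 CPM and changed by 0.65. In each of these 4 genes all OVA libraries lay above all B16-F10 libraries, which the naming rule required. Otog, a protein of inner ear matrix, Tmem179, the chloride channel gene Cftr and the noncoding Platr16 changed by 1.36, 1.02, 0.91 and 0.83. T cell levels of Cpz, Otog and Tmem179 were 0.837, 0.924 and 0.8 CPM for B16-F10 and 0.0751, 0.122 and 0.128 CPM for OVA tumors. Those of Cth were 0.909 and 0.774 CPM. The keratin sums given below also stood higher in T cells from B16-F10 tumors. The part of other cell types in these rises was not tested. Gsdmc, a pore-forming gasdermin, was chosen after its values were seen because it was more abundant. It had 42.7, 42.7 and 43.6 CPM against 50.2, 49.6 and 47.6 CPM, beside 0.842 and 0.197 CPM in T cells, with a change of 0.36 (SE 0.0381, adjusted p = 9.09e-09). Under marker scaling the rises of these genes ran from 1.54 for Gsdmc to 2.72 for Cpz.

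**Figure D5:**
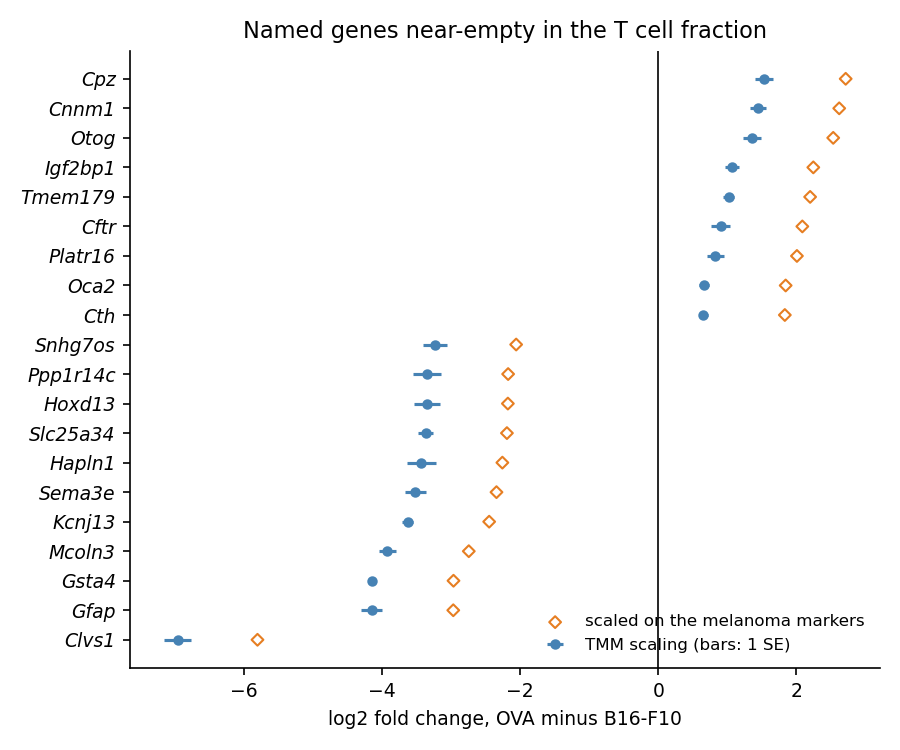
Log2 fold changes (OVA minus B16-F10) of the named near-empty genes with more than 3 counts in each tumor group, under TMM scaling (filled, bars of 1 SE) and scaled on the melanoma markers (open). From Clvs1 at -6.97 to Snhg7os at -3.24 the falls stay below 0 under both scalings, and from Cth at 0.65 to Cpz at 1.54 the rises stay above 0.

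Other near-empty genes were present in OVA libraries and missing from B16-F10 ones. In all, 145 near-empty genes had at least 1 CPM in the OVA tumor libraries and under 0.1 CPM in the B16-F10 ones, and 16 of them were keratins and 8 keratin-associated proteins, the structural proteins of epidermis and hair. Krt5, the keratin of basal epidermis, had 0 counts in B16-F10 and 7.7, 8.69 and 7.36 CPM in OVA libraries, at least 166-fold higher (taking 3 counts per group as the floor). Krt27, a hair root sheath keratin, had 0 counts against 6.55, 5.76 and 7.93 CPM, at least 144-fold higher. Trp63, the factor of stratified epithelia, had 0 counts against 2.07, 1.6 and 2.05 CPM. Of 54 keratins and 110 keratin-associated proteins in the table, 31 and 17 passed the filter on low counts. They passed it almost entirely through the OVA group, so that all of these were higher is not a result. The summed keratin level was 5.6 ± 0.369 CPM in B16-F10 tumor, 119 ± 2.41 CPM in OVA tumor, 29.3 ± 1.31 CPM in B16-F10 T cell and 6.8 ± 0.571 CPM in OVA T cell libraries. The same sums for keratin-associated proteins were 0.0463 ± 0.0434, 35.7 ± 1.68, 10.8 ± 0.898 and 0.146 ± 0.127 CPM.

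Myeloid genes reached the near-empty class too. Retnlg, a neutrophil marker, had 0 counts in B16-F10 and 4.15, 4.69 and 4.83 CPM in OVA libraries, beside 0.702 and 0.514 CPM in T cells, at least 95.2-fold higher. Chil3 and Cx3cr1, genes of macrophages and monocytes, each had 2 counts over the B16-F10 tumor libraries. In OVA libraries they had 4.69, 4.16 and 5.47 CPM and 1.74, 1.6 and 1.41 CPM. Sirpb1a, a receptor of myeloid cells with near-identical relatives and so uncertain, had 1 count in B16-F10 against 6.1, 4.59 and 5.11 CPM in OVA libraries. Genes with a low T cell level and a rise from near 0 thus included markers of other cell types. The B16-F10 tumor libraries held 2.38 CPM of neutrophil, 6.75 CPM of T cell and 24.7 CPM of endothelial markers, lower than the OVA ones in each case.

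Genes shared with the T cell libraries are given briefly. The highest by the naming rule were Emcn, Cyyr1, Cldn5 and Inhbb, with 142 ± 2.4, 122 ± 0.276, 120.0 ± 1.09 and 424 ± 4.13 CPM (SD, n = 3) in OVA tumor libraries and 0 or 1 count in B16-F10. In T cells Inhbb averaged 1209 and 671 CPM. The lowest were Apol6, Gbp11, Gbp10 and Dkk3. Gbp10, an interferon-inducible GTPase, had 70.8, 70.4 and 68.4 CPM in B16-F10 and 3.1, 2.45 and 2.29 CPM in OVA tumor libraries, and means of 7.39 and 55 CPM in T cells from B16-F10 and OVA tumors. Igtp, another such GTPase, had 291, 297 and 299.5 CPM against 39.3, 38.7 and 40.6 CPM, beside 96.3 and 437 CPM in T cells. Of 21 of these GTPases tested, 4 were higher and 16 lower in the OVA tumor libraries, beside 45.8% and 37.6% of all shared genes. Their median of -0.85 turned to 0.33 under marker scaling. Gbp10 and Igtp stayed below 0 there, at -3.35 and -1.55. The summed level of all 21 GTPases was 2059.8 CPM in B16-F10 and 684 CPM in OVA tumor libraries, and 1758 and 8941 CPM in T cells from these tumors. In the tumor fraction the OVA value was the lower of its pair and in the T cell fraction the higher. Other interferon-linked lists, all of shared genes, mostly went the other way in the tumor libraries. Of 29 interferon gamma pathway and target genes tested, 20 were higher and 9 lower. Of 23 genes of antigen presentation by MHC class I, 17 were higher and 4 lower. Both lists had a median of 0.59, and the part of stromal or immune RNA in them was not tested. Dkk3, a secreted glycoprotein, had 95.9, 94.9 and 91.9 CPM against 4.18, 4.05 and 3.7 CPM, beside 3.73 and 3.98 CPM in T cells, so its OVA tumor level lay close to the T cell levels.

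Xist and Cdkn2a show how genes absent or nearly absent from the B16-F10 libraries behaved. Xist, the RNA that silences an X chromosome, had 0.893, 0.689 and 0.686 CPM in B16-F10 and 259, 268 and 268 CPM in OVA tumor libraries, beside 536 and 554 CPM in T cells. Cdkn2a, which encodes cell cycle inhibitors, had 0 counts in B16-F10, 0.571, 0.48 and 0.724 CPM in OVA libraries, beside 3.45 and 3.67 CPM in T cells. For both genes, as for Ednrb, the OVA tumor libraries stood between the B16-F10 tumor and T cell libraries, and the part of stromal RNA was not tested.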

How the data were processed

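The deposited table holds raw counts per gene in 12 libraries (the authors' counts, whole numbers with no normalization). Per the submitters' processing notes, reads were aligned to GRCm39 with HISAT2 2.0.5 and counted with featureCounts 1.6.0. Whether strand was used, how multi-mapping reads were treated and which annotation was taken are not given in the sources used here. The library kit in the labels selects poly(A) RNA. The table has 77175 genes, of which 21805 have no symbol, and every count column was used. Gene coordinates are not given, because no annotation of that build was used here. Promoter sequences come from RefSeq on GRCm38.p6.

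Levels are CPM of the library total. The test was edgeR 4.0.16 in R 4.3.3, fitted on the 6 tumor libraries with filterByExpr, TMM factors and the quasi-likelihood test, adjusted over all genes by Benjamini-Hochberg with a threshold of 0.05. The 2-fold counts come from glmTreat. SE values were derived from the F statistic. Marker scaling shifts the libraries so that the median of the 12 melanoma cell markers is 0. For a tumor group at 0 counts, the fold is the least it could be if 3 counts had been seen there, and with 1 to 3 counts it is a ratio with a 95% Clopper-Pearson interval. Both cover counting error only. The code was tested on simulated data.

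Genes were named by rule: called, no overlap between tumor groups, 5 CPM or more in the higher group, and a symbol that is no predicted gene or pseudogene. From these came the 12 highest and 12 lowest near-empty, 8 and 8 trace, and 4 and 4 shared genes, up to 4 members of each list, the melanoma markers, Ppargc1a, Gpr158, Cdkn2a, Xist and Ednrb. The glial, glutamate receptor, sodium channel, glutathione transferase, collagen and carbonic anhydrase genes, and Gpnmb, Cited1, Gsdmc, Chil3, Cx3cr1, Retnlg, Trp63, Prx, Mbp, Msx2, Col8a2, Shank1 and Sv2b, were chosen after values were seen. Members and lists were chosen with earlier results of these data known. Of 650 listed symbols, 645 were found.

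Pairs of libraries within a group differed by more than counting noise in every case (chi-square per degree of freedom 1.51 to 1.77), so none was counted as a repeat. Alternatives were other scalings, DESeq2 1.42.0, limma-voom (limma 3.58.1), other filters, a fit of all 12 libraries, the replicate number as a block, leaving out each library, and other class limits.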

Additional observations from a re-analysis of the deposited data

How the results depend on the processing

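The split of calls depended on the scaling. Over all genes, 11197 were higher and 2888 lower with TMM factors from near-empty and trace genes, and 15800 and 486 with marker scaling. Shared genes had 10288 higher and 2173 lower with the former and 14036 and 206 with the latter. Trace genes had 1 higher with the former, and 28 higher and 31 lower with the latter. Near-empty genes had 908 higher and 654 lower with the former and 1736 and 249 with the latter. Against a 2-fold change, 3867 and 797 of all genes were higher and lower, 408 and 370 of near-empty and 3459 and 387 of shared genes, and 40 trace genes were lower.

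The count of higher near-empty genes was 2592 with no filter, 233 with at least 1 CPM in 3 libraries, 1070 in a fit of 12 libraries and 1666 with DESeq2. With the near-empty limit at 0.3 CPM, 166 near-empty genes were higher and 469 lower, and 2 trace genes higher and 118 lower. With 3 CPM the near-empty counts were 1538 and 1534, with 27 trace genes lower. A trace limit of 1% left 17 lower trace genes, and 10% gave 8 higher and 207 lower.

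The median of the near-empty class turned positive with TMM factors from near-empty and trace genes (0.19), marker scaling (0.94), no filter (0.58), the fit of 12 libraries (0.074) and DESeq2 (0.63). With library totals the median of all genes was -0.13 and that of shared genes -0.085. The cause was not tested. Marker scaling turned Tyrp1 (0.38), Tyr (0.17), Mitf (0.80), Sox10 (0.28), Gpnmb (0.22), Rab38 (0.61), Sox6 (0.16), Met (0.20), Clstn3 (0.51), Glrb (0.66), Camsap3 (0.70), Fkbp6 (0.78), Dmrta2 (0.78), Pde11a (0.81), Nrcam (0.26), Grik4 (0.15), Grin3b (0.26), Scn1a (0.20), Ppargc1a (0.43), Xlr3a (0.43), Xlr3c (0.38), Car9 (0.48), Gapdh (0.28), Kpna2 (0.24) and Mbp (0.33) positive. TMM factors from near-empty and trace genes did so for Mitf (0.053), Fkbp6 (0.024), Dmrta2 (0.027) and Pde11a (0.060). Of these values, those of Grik4, Grin3b and Scn1a under marker scaling and of Fkbp6, Dmrta2 and Pde11a under the TMM factors were not called. Another 5 named genes lost their call under marker scaling.

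Leaving out 1 library at a time gave 7203 to 7465 higher and 6325 to 6556 lower genes, 648 to 831 and 930 to 1017 in the near-empty class, and 66 lower trace genes each time. No left-out library changed the direction or call of a named gene. Same-numbered libraries of the 2 tumor groups had deviation correlations of -0.0187, 0.0182 and 0.0472, and differently numbered ones ran from -0.0591 to 0.0414. With so little spread inside a group, these values cannot settle whether replicate numbers mark a shared animal or day. With the replicate block 7214 genes were higher and 6442 lower, and it changed no call of a named gene. Depth limits genes under about 1 CPM, which had few counts in either tumor group.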

Other observations

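Copies of 2 abundant genes separated the tumor groups. These genes were chosen after their values were seen. Gm12671, a processed copy of the glycolysis gene Gapdh whose 1002-base GENCODE M21 transcript is contained without a mismatch in a Gapdh transcript, had 1208, 1270.2 and 1334 CPM in the B16-F10 tumor libraries and 0 counts in the 9 remaining libraries. Another copy, Gm13394, with 1 mismatch to Gapdh over 1000 bases, went the other way. It had 0.423, 0.775 and 1.06 CPM in B16-F10 and 618, 624 and 614 CPM in OVA tumor libraries, beside 728 and 681 CPM in T cells. Gapdh itself had 8402, 8269.5 and 8347 CPM and 3968, 3967 and 3974 CPM in the tumor groups. Reads from such copies cannot be told apart by sequence alone where the sequences are the same, so how the counts were assigned was not tested. Kpna2rt, a retrotransposed copy of the nuclear import gene Kpna2, had 0 counts in the B16-F10 tumor libraries and 34.4, 42.1 and 37.7 CPM in the OVA ones, beside 69 and 64.6 CPM in T cells. Kpna2 had 258, 256 and 256 CPM against 121, 118 and 117 CPM.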
